A study of Homo sapiens with 21 samples.

Results

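The 8 CDK inhibitor genes described here are CDKN1A, CDKN1B, CDKN1C, CDKN2A, CDKN2B, CDKN2C, CDKN2D and CDKN3. They were chosen by symbol, and each has 1 row in a deposited expression table of 60728 genes. RNA-Seq was made from SK-N-BE(2) cells, an established human neuroblastoma line described in the study as MYCN-amplified. Cells received lentiviral particles with short hairpin RNAs (shRNAs), and RNA was taken 72 h after transduction. Control libraries carried a non-silencing shRNA. The silenced conditions comprised 2 labelled shARID1A (shARID1A.2 and shARID1A.4), 2 labelled shARID1B (shARID1B.2 and shARID1B.3) and 2 labelled shARID1A/B (shARID1A/B.2.3 and shARID1A/B.4.2), where the digits name individual shRNAs and the last pair of conditions combines an shRNA against each gene. Each of the 7 conditions had 3 libraries, described by the submitters as biological triplicates, which makes 21 libraries of cultures of a single cell line. ARID1A and ARID1B are alternative, mutually exclusive subunits of the BAF chromatin remodelling complex. The question addressed was how the transcripts that brake the cell cycle stood in each silenced condition relative to Control.

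Progression through the cell cycle is driven by cyclin-dependent kinases (CDKs) bound to cyclins. The CIP/KIP inhibitors p21 (CDKN1A), p27 (CDKN1B) and p57 (CDKN1C) bind cyclin-CDK complexes of G1 and S phase, while the INK4 inhibitors p16 (CDKN2A), p15 (CDKN2B), p18 (CDKN2C) and p19 (CDKN2D) bind CDK4 and CDK6 and keep them from D-type cyclins. CDKN3 is a phosphatase that removes an activating phosphate from CDK2 and is itself transcribed mostly in dividing cells. CDKN2A has a second product, ARF, read from another first exon in another frame, which binds the ubiquitin ligase MDM2. CDKN1A is induced by many kinds of cell stress, and the level of p27 is set largely by protein degradation through SKP2.

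Promoter sequences are shown for the 2 pairs of members whose levels ran most closely together over the 21 libraries, CDKN2C with CDKN3 and CDKN1A with CDKN2A. The sequences are RefSeq windows of 250 bases before an annotated start (build GRCh38.p14), which were found for 7 of the 8 members in 10 windows. Printed is the longest stretch of a window with no annotated exon, from the ARF start for CDKN2A and from the most upstream of 3 starts for CDKN2C. All are written 5′ to 3′ on the strand of the gene, and capitals mark matches, on either strand, to any of 5 motifs searched, namely the CCAAT box, the cell cycle element TTTGAA, the GC box GGGCGG, the E-box CACGTG and the E2F-type element TTCCCGC.
CDKN1A, chr6:36678560-36678657, plus strand: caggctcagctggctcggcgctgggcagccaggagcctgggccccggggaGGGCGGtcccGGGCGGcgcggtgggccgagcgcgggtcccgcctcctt
CDKN2A, chr9:21995325-21995481, minus strand: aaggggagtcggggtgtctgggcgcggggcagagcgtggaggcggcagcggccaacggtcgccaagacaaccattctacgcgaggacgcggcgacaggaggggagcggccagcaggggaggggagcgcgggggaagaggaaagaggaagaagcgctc
CDKN2C, chr1:50960495-50960744, plus strand: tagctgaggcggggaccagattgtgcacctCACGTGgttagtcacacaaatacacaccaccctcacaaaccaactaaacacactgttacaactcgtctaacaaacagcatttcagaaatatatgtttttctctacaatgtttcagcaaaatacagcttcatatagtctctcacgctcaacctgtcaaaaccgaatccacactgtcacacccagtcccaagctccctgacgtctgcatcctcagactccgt
CDKN3, chr14:54396757-54396848, plus strand: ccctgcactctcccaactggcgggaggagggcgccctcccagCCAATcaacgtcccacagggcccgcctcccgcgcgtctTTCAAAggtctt

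In these stretches CDKN1A held GGGCGG at 2 places, CDKN2C held CACGTG, and CDKN3 held CCAAT together with TTTGAA on the opposite strand. The CDKN2A stretch held none of the 5 motifs. The unprinted parts of the CDKN1A and CDKN3 windows lie in annotated exons and held matches too. These were GGGCGG in CDKN1A, at 45 to 40 and 40 to 35 bases before the start, and CCAAT on the opposite strand in CDKN3, at 83 to 79. Windows not printed, which lie in annotated exons, held further matches, namely a GC box at the p16 start of CDKN2A, and GC boxes, E2F-type elements, a CCAAT box and a further E-box at the other starts of CDKN2C. Of 34943 windows of the same length, 42.5% held GGGCGG, 32.0% CCAAT, 13.4% TTTGAA, 6.32% CACGTG and 5.51% TTCCCGC on either strand. None of the 5 motifs overlapped another in the printed stretches. A match describes letters in a window and shows nothing about binding.

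The transcripts targeted by the shRNAs were examined first, because they check the labels. Values are those deposited, which are reads on a gene divided by a size factor of the library, and differences are on the log2(value + 1) scale with their standard error (SE). ARID1A was 6097, 6374 and 6463 in Control. It lay between 1882 and 2507 in all 12 libraries labelled shARID1A.2, shARID1A.4, shARID1B.2 and shARID1B.3, but between 5352 and 5752 in the 6 libraries labelled shARID1A/B. ARID1B was 5793, 5804 and 5791 in Control. It lay between 2224 and 3126 in the libraries labelled shARID1A.2 and shARID1A.4 and between 1881 and 2651 in those labelled shARID1A/B, and between 4913 and 6182 in those labelled shARID1B. Thus both transcripts were low in the 6 libraries labelled shARID1A, ARID1A was the lower transcript in the 6 labelled shARID1B, and ARID1B was the lower transcript in the 6 labelled shARID1A/B, so that in none of the 6 conditions were the low transcripts those that the label names alone.

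**Figure D1:**
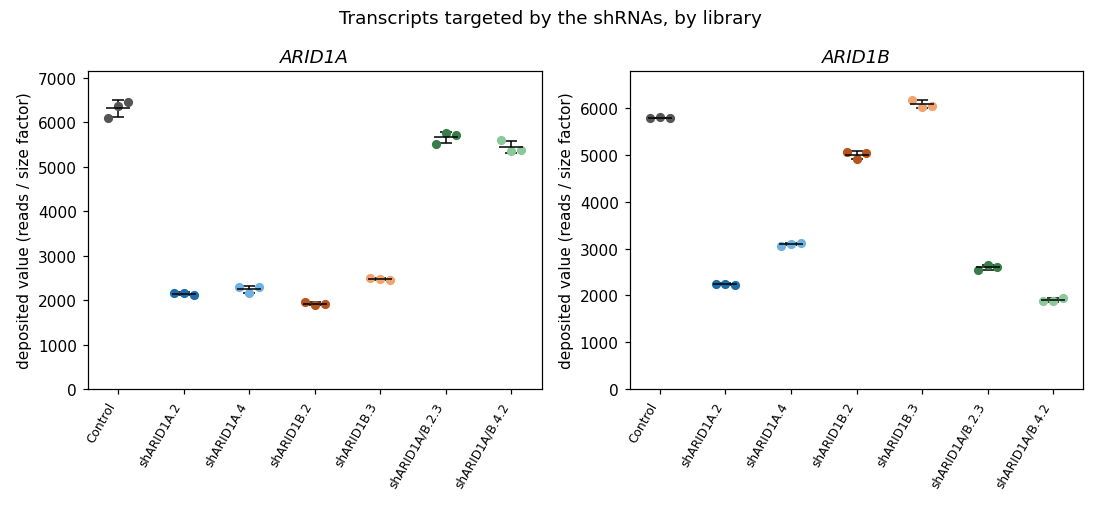
Deposited values of ARID1A and ARID1B (reads divided by size factor) in each of 21 libraries, by labelled condition; points are libraries, bars the mean and SD of 3 libraries. ARID1A is between 1882 and 2507 in the libraries labelled shARID1A and shARID1B only, and ARID1B is low in those labelled shARID1A and shARID1A/B.

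The log2 change of ARID1A against Control was -1.56 and -1.49 in the libraries labelled shARID1A.2 and shARID1A.4, -1.72 and -1.35 in those labelled shARID1B.2 and shARID1B.3, and -0.16 and -0.21 in those labelled shARID1A/B.2.3 and shARID1A/B.4.2. That of ARID1B was -1.37, -0.90, -0.21, 0.07, -1.16 and -1.60 in the same order. In what follows a condition name stands for the libraries labelled with it, and every direction is that of the libraries so labelled, not of a known pattern of silencing.

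Depth was 27954334 to 41077638 reads per library, and 18584 genes passed a filter on low reads, among them all 8 members. On the first principal component (43.0% of the variance over 13675 genes) Control lay at -8.04 to -7.46 and shARID1B.3 near it, at -15.3 to -15.0. Conditions stood apart on both sides, with shARID1A.2 (52.5 to 53.2), shARID1A/B.4.2 (40.4 to 41.1) and shARID1B.2 (20.1 to 20.3) on one side and shARID1A.4 (-46.7 to -45.4) and shARID1A/B.2.3 (-45.6 to -44.9) on the other. The 3 conditions on the positive side also had a lower sum of deposited values, 31245800 to 32815100 against 34891100 to 35919800. The mitochondrial share of the values was 6.35% to 6.63% in Control and higher in every silenced library, at 6.66% to 8.20%, with the highest shares in shARID1A.2 and shARID1A/B.4.2 (7.50% to 8.20%). The 7 adrenergic neuroblastoma markers were all expressed, with summed values of 47044 to 47525 in Control and 30453 to 46673 elsewhere. The 6 fibroblast markers, collagens and matrix genes with PDGFRB, were expressed too, with summed values of 35281 to 35848 in Control and 12269 to 33473 elsewhere, and the 5 epithelial markers summed to 129 to 333, with CDH1 at under 10 in every library. Their part in the results was not tested. Scaling to total reads in place of the deposited size factors raised the median of all genes by 0.17, 0.13 and 0.18 in shARID1A.2, shARID1B.2 and shARID1A/B.4.2 and by 0.02 to 0.03 in the others, so a log2 change near that size there depends on the scaling. In RNA from a whole culture, fewer cells of a type and less RNA per cell cannot be told apart.

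Seen across conditions, CDKN2C and CDKN3 fell in the 5 silenced conditions other than shARID1B.3, and CDKN1C fell in the 5 other than shARID1A/B.4.2. CDKN1A and CDKN2A fell in the same 3 conditions (shARID1A.2, shARID1B.2 and shARID1A/B.4.2). The CDKN2A falls in shARID1B.2 and shARID1A/B.4.2 did not pass when scaled to total reads. CDKN1B, the most abundant member, ran from -0.25 to 0.17 on the log2 scale over the conditions with the deposited size factors, a range that depends on the scaling. In shARID1A.2, 3 members were higher than Control and 5 lower at an adjusted p under 0.05 (limma with Benjamini-Hochberg adjustment over all genes), where 76.1% of all genes tested were called. The counts were 2 higher and 5 lower in shARID1A.4 (73.6% of all genes), 0 higher and 6 lower in shARID1B.2 (65.6%), 4 higher and 2 lower in shARID1B.3 (63.9%), 3 higher and 5 lower in shARID1A/B.2.3 (69.2%), and 1 higher and 4 lower in shARID1A/B.4.2 (71.2%). With so many genes called in each comparison, a count of 5 to 8 called members of 8 is no result about the members as a group. In the same order, 37.9%, 37.0%, 31.6%, 31.9%, 35.2% and 35.1% of all genes were called higher and 38.2%, 36.6%, 34.0%, 32.0%, 34.0% and 36.1% lower. With a log2 change over 1 in size as well, 2, 2, 2, 0, 4 and 2 members were called in the same order of conditions, against 24.8%, 21.4%, 12.0%, 11.8%, 16.1% and 18.4% of all genes. In shARID1A.2 and shARID1A/B.2.3 these include CDKN2B, whose call there was lost without Control replicate 2. The 0 members higher in shARID1B.2 by limma were also 0 by edgeR and by DESeq2 on the recovered reads, and 0 at an unadjusted p under 0.05 by limma, but 1 (CDKN1B) when scaled to total reads or to the upper quartile.

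CDKN1A (ENSG00000124762.14; chr6:36676460-36687339, GRCh38), which encodes p21, had the widest range of log2 changes among the members. It was 139, 135 and 164 in Control. Lower values were found in shARID1A.2 (32.4, 30.9 and 42.3), shARID1B.2 (49.9, 67.1 and 51.6) and shARID1A/B.4.2 (41.9, 47.1 and 44.0). All 9 of these libraries lay below every Control library. The values were 167, 206 and 169 in shARID1A.4 and 123, 137 and 116 in shARID1B.3. They reached 247, 225 and 263 in shARID1A/B.2.3, above all other libraries. The log2 change was -2.03 ± 0.14 (SE, n = 3 libraries per condition) in shARID1A.2, -1.69 ± 0.14 in shARID1A/B.4.2 and -1.37 ± 0.14 in shARID1B.2, with limma adjusted p of 1.54e-12, 6.38e-11 and 4.22e-09. It was 0.74 ± 0.14 in shARID1A/B.2.3 (adjusted p = 4.08e-05, limma). The change of 0.30 in shARID1A.4 missed the threshold (adjusted p = 0.0539, limma) although its libraries did not overlap Control, and that of -0.22 in shARID1B.3 did not pass (adjusted p = 0.175, limma). The change in shARID1A.4 passed in edgeR's quasi-likelihood test (0.31, adjusted p = 0.0173). It also passed scaled to total reads (0.32, adjusted p = 0.0397, limma) or to the upper quartile (0.39, adjusted p = 0.0150, limma). With only the 2 conditions compared it passed too (adjusted p = 0.0344, limma), as it did without Control replicate 3 (0.39, adjusted p = 0.0280, limma). It did not pass with DESeq2 or with no filter on low values. DINOL and PANDAR, long noncoding genes next to CDKN1A, were at or near 0, with means of 0.095 and 0 over all libraries.

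CDKN1B (ENSG00000111276.11; chr12:12715058-12722371), the gene of p27, was the most abundant member per kilobase, with the narrowest range of log2 changes. Its values were 4447, 4582 and 4479 in Control and between 3695 and 5218 in all libraries. It was highest in shARID1A.2, at 5218, 4992 and 5020, and lowest in shARID1A/B.2.3, at 3837, 3794 and 3695. Both conditions were clear of the Control range. The log2 change was 0.17 ± 0.03 (SE) in shARID1A.2, 0.08 ± 0.03 in shARID1B.3, -0.13 ± 0.03 in shARID1A.4 and -0.25 ± 0.03 in shARID1A/B.2.3, with limma adjusted p of 1.91e-05, 0.0197, 7.94e-04 and 7.23e-08. The rise in shARID1B.3 did not pass without Control replicate 1, Control replicate 3 or shARID1B.3 replicate 2 (0.08, 0.08 and 0.07; adjusted p = 0.0661, 0.0526 and 0.0999, limma). Scaled to the upper quartile, the fall in shARID1A.4 was -0.040 and did not pass (adjusted p = 0.259, limma). The changes of 0.03 in shARID1B.2 and -0.03 in shARID1A/B.4.2 did not pass (adjusted p = 0.486 and 0.409, limma), and their 95% intervals ran from -0.04 to 0.09 and from -0.09 to 0.03. Scaling the reads to their total raised the median of all genes by 0.13 and 0.18 in shARID1B.2 and shARID1A/B.4.2, and CDKN1B then stood at 0.16 in each and passed (adjusted p = 2.47e-04 and 2.66e-04, limma), beside medians of 0.15 and 0.20 for all genes. Scaled to the upper quartile it stood at 0.14 and 0.13 and passed too (adjusted p = 2.88e-04 and 5.39e-04, limma). The sign in shARID1A/B.4.2 thus depends on the scaling. In shARID1A.2 the median of all genes was raised by 0.17 scaled to total reads and by 0.18 scaled to the upper quartile. The size of the CDKN1B rise there therefore depends on the scaling too.

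CDKN1C (ENSG00000129757.13; chr11:2883213-2885773), the imprinted gene of p57, was 291, 262 and 292 in Control. The lowest values were those of shARID1A.4, at 53.4, 59.5 and 57.9. In between lay shARID1A.2 (165, 127 and 164), shARID1B.2 (121, 120 and 144), shARID1B.3 (159, 142 and 151) and shARID1A/B.2.3 (167, 104 and 122), none of which overlapped Control. In shARID1A/B.4.2 it was 262, 294 and 278, within the spread of Control. The log2 change was -2.29 ± 0.13 (SE) in shARID1A.4 (adjusted p = 5.41e-14, limma). It was between -1.13 and -0.90 in the other 4 conditions in which CDKN1C fell, with limma adjusted p from 1.93e-06 down to 4.08e-08. In shARID1A/B.4.2 it was -0.02, with a 95% interval from -0.29 to 0.25 (adjusted p = 0.910, limma).

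CDKN2A (ENSG00000147889.17; chr9:21967753-21995301) was counted as a single row over 14 annotated transcripts, so reads of p16 and ARF were not separated. Its values were 241, 238 and 268 in Control. They were higher in shARID1A.4 (335, 352 and 363), shARID1B.3 (334, 305 and 315) and shARID1A/B.2.3 (337, 338 and 367). They were lower in shARID1A.2 (163, 151 and 172), shARID1B.2 (221, 197 and 204) and shARID1A/B.4.2 (186, 199 and 204). No silenced condition overlapped Control. The log2 changes were 0.49, 0.35 and 0.48 (each ± 0.07, SE) in the 3 conditions in which it rose and -0.62, -0.27 and -0.34 in the 3 in which it fell, and all passed the test, with limma adjusted p between 3.92e-08 and 0.00262. Scaled to total reads, the falls in shARID1B.2 and shARID1A/B.4.2 were -0.13 and -0.15 and no longer passed (adjusted p = 0.120 and 0.0605, limma). Scaled to the upper quartile, the fall in shARID1B.2 was -0.15 and did not pass either (adjusted p = 0.0774, limma).

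CDKN2B (ENSG00000147883.12; chr9:22002903-22009363), the gene of p15, was the member with the fewest reads. It passed the filter and its mean was above 10 reads per library, the minimum below which a gene was called near the detection limit, but in Control it rested on 17, 4 and 21 reads. A count of 4 reads has a 95% Poisson interval of 1.09 to 10.2, which covers counting error only. The deposited values were 20.0, 4.48 and 21.6 in Control and 37.4, 55.6 and 45.0 in shARID1A/B.4.2, which lay above all other libraries. They were 24.9, 25.8 and 28.9 in shARID1A.2, 32.4, 33.3 and 22.4 in shARID1A/B.2.3, and 27.2, 27.4 and 17.0 in shARID1A.4. The remaining conditions were at 18.9, 19.9 and 19.9 (shARID1B.3) and at 10.5, 10.4 and 11.6 (shARID1B.2). The log2 change was 1.76 ± 0.36 (SE) in shARID1A/B.4.2 (adjusted p = 1.15e-04, limma) and 1.12 ± 0.36 in shARID1A/B.2.3 (adjusted p = 0.00740, limma). For the conditions labelled shARID1A it was 1.0 ± 0.36 (shARID1A.2) and 0.82 ± 0.36 (shARID1A.4), with limma adjusted p of 0.0141 and 0.0416. Without Control replicate 2, the library with 4 reads, these 4 changes were 1.09, 0.46, 0.34 and 0.16, with limma adjusted p of 5.50e-04, 0.113, 0.234 and 0.584, so that the rise in shARID1A/B.4.2 alone still passed. In shARID1A.4 the rise was also lost without replicate 1 or 2 of that condition (0.72 and 0.71, adjusted p = 0.119 and 0.120, limma). It did not pass with edgeR (0.64, adjusted p = 0.0909), with DESeq2 (0.63, adjusted p = 0.132) or with no filter on low values (adjusted p = 0.0959, limma). With only the 2 conditions compared, the rises in shARID1A.4, shARID1A.2 and shARID1A/B.2.3 did not pass (adjusted p = 0.142, 0.0684 and 0.0525, limma). Without Control replicate 2 the change in shARID1B.2 went from -0.22 (adjusted p = 0.611, limma) to -0.88 (adjusted p = 0.00419, limma). That in shARID1B.3 went from 0.58 (adjusted p = 0.160, limma) to -0.08 (adjusted p = 0.801, limma). Without Control replicate 1 or 3 instead, the rise in shARID1B.3 passed (0.89 and 0.94; adjusted p = 0.0480 and 0.0323, limma). CDKN2B-AS1, a long noncoding gene on the opposite strand whose span overlaps CDKN2A and CDKN2B, was at 44.2 to 58.2 in Control. The libraries were stranded, but whether strand was used in counting is not given in the sources used here, so reads of CDKN2B and CDKN2B-AS1 may not be told apart. From shARID1A.2 to shARID1A/B.4.2, in the order of the counts above, CDKN2B-AS1 changed by -0.44, -0.21, -0.73, -0.04, -0.76 and -0.53 on the log2 scale. The falls in shARID1A.2, shARID1B.2, shARID1A/B.2.3 and shARID1A/B.4.2 passed (adjusted p = 0.0456, 0.00227, 0.00135 and 0.0194, limma). CDKN2B did not rise in shARID1B.2 (-0.22), so the pair did not move oppositely throughout.

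CDKN2C (ENSG00000123080.12; chr1:50960745-50974633), the gene of p18, was 2296, 2271 and 2345 in Control. It was lowest in shARID1A/B.2.3, at 959, 1019 and 1070, and in shARID1A.4, at 1114, 1199 and 1133. Intermediate values were found in shARID1A.2 (1374, 1366 and 1402), shARID1A/B.4.2 (1386, 1468 and 1444) and shARID1B.2 (1565, 1576 and 1583). In shARID1B.3 it was 2686, 2634 and 2612, above Control. No silenced condition overlapped Control. The log2 change was -1.18 (shARID1A/B.2.3), -1.0 (shARID1A.4), -0.74 (shARID1A.2), -0.68 (shARID1A/B.4.2), -0.55 (shARID1B.2) and 0.20 (shARID1B.3), each ± 0.04 (SE), and all passed, with a largest limma adjusted p of 3.49e-05.

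CDKN3 (ENSG00000100526.20; chr14:54396849-54420218) followed nearly the same order. It was 1169, 1200 and 1280 in Control. The lowest values were 541, 550 and 561 in shARID1A/B.2.3, followed by 631, 660 and 654 in shARID1A.4 and 693, 698 and 745 in shARID1A.2. Then came shARID1B.2 (885, 831 and 846) and shARID1A/B.4.2 (904, 936 and 901), all below Control. In shARID1B.3 it was 1258, 1418 and 1364, which overlapped Control. The log2 changes were -1.14, -0.91, -0.77, -0.51 and -0.41 in the 5 conditions in which it fell and 0.15 in shARID1B.3, each ± 0.05 (SE), with limma adjusted p from 4.64e-17 for the largest fall to 0.00718 in shARID1B.3. Without shARID1B.3 replicate 2 the rise was 0.11 and did not pass (adjusted p = 0.0603, limma). Over the 21 libraries CDKN2C and CDKN3 had a Pearson r of 0.972 and a Spearman rho of 0.943 on the log2(value + 1) scale, the highest of the 28 pairs of members, followed by CDKN1A and CDKN2A at 0.929 (Pearson) and 0.931 (Spearman). These are descriptions over libraries that share conditions. CDKN2A and CDKN2D lay at the other end, with a Pearson r of -0.740 and a Spearman rho of -0.670.

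CDKN2D (ENSG00000129355.7; chr19:10566462-10569059), the gene of p19, was 120, 79.5 and 128 in Control, with replicate 2 below the other libraries. It was higher in shARID1A.2 (157, 151 and 156) and at 129, 149 and 135 in shARID1A/B.4.2, just clear of Control. The lowest condition was shARID1A.4 (41.8, 71.4 and 63.9). Values in shARID1B.2 (78.8, 68.3 and 83.6), shARID1B.3 (71.7, 59.9 and 80.3) and shARID1A/B.2.3 (74.9, 75.0 and 85.6) overlapped Control through its replicate 2. The log2 change was 0.53 ± 0.17 (SE) in shARID1A.2 (adjusted p = 0.00856, limma) and -0.88 ± 0.17 in shARID1A.4 (adjusted p = 7.67e-05, limma). It was -0.48, -0.60 and -0.44 in shARID1B.2, shARID1B.3 and shARID1A/B.2.3 (adjusted p = 0.0198, 0.00423 and 0.0275, limma). In shARID1A/B.4.2 the change of 0.36 did not pass (adjusted p = 0.0691, limma). Without Control replicate 2 the rise in shARID1A.2 was 0.32 and did not pass (adjusted p = 0.10, limma). The fall in shARID1B.2 was lost without Control replicate 1, Control replicate 3 or shARID1B.2 replicate 2 (-0.39, -0.35 and -0.39; adjusted p = 0.0846, 0.120 and 0.0850, limma). That in shARID1A/B.2.3 was lost without Control replicate 1 or 3 or shARID1A/B.2.3 replicate 1 or 2 (-0.36, -0.31, -0.41 and -0.41; adjusted p = 0.108, 0.153, 0.0725 and 0.0723, limma). In shARID1A/B.4.2 the change passed without Control replicate 3 (0.49, adjusted p = 0.0261) or shARID1A.4 replicate 1 (0.36, adjusted p = 0.0353, limma). It also passed scaled to total reads (0.55, adjusted p = 0.00664, limma), scaled to the upper quartile (0.52, adjusted p = 0.00969, limma) and with edgeR (0.37, adjusted p = 0.0294). The fall in shARID1B.2 did not pass under these scalings (adjusted p = 0.0843 and 0.0724, limma), nor did that in shARID1A/B.2.3 scaled to the upper quartile or with no filter (adjusted p = 0.0616 and 0.0521, limma).

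**Figure D2:**
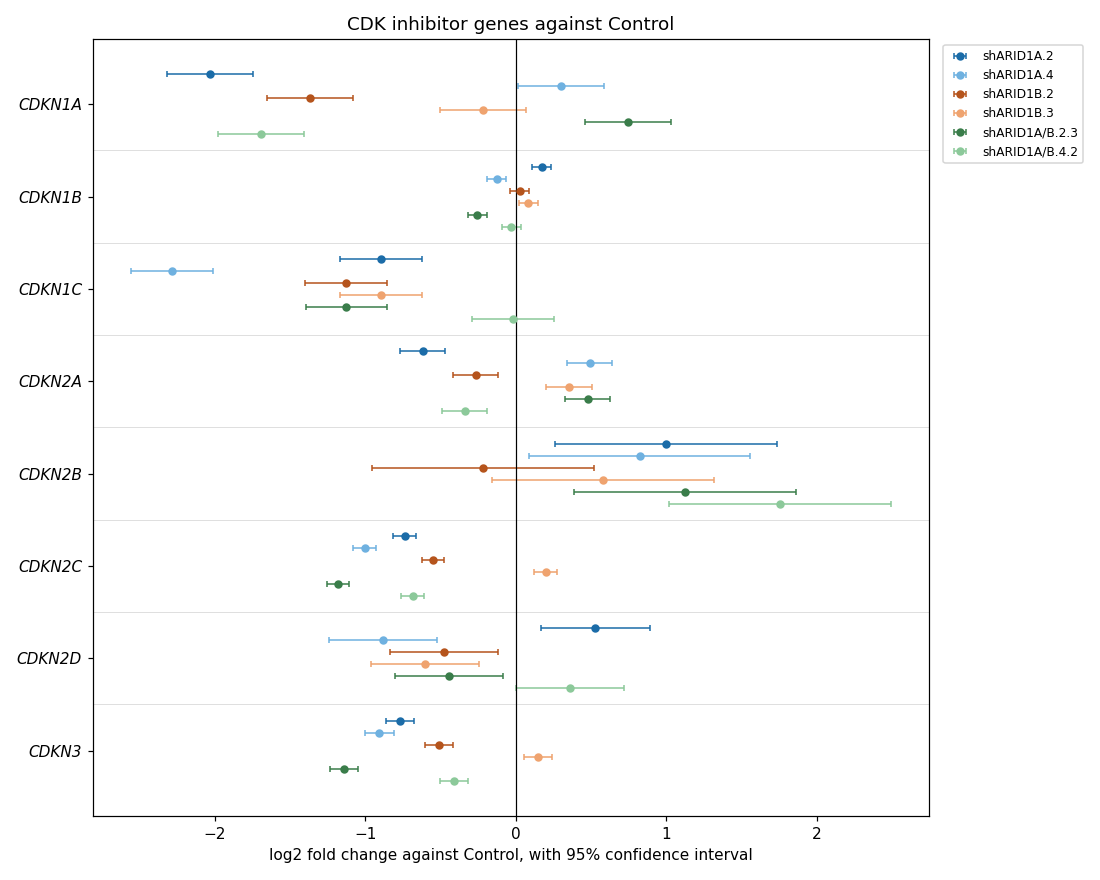
Log2 fold change of each CDK inhibitor gene against Control in the 6 silenced conditions as labelled; points are limma estimates on log2(value + 1) and bars their 95% confidence intervals. CDKN1A ranges from -2.03 to 0.74 between conditions, and CDKN1B from -0.25 to 0.17, with the deposited size factors.

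Read condition by condition, libraries of a silenced condition did not overlap Control for 8 of 8 members in shARID1A.2 (77.7% of all genes tested), 7 in shARID1A.4 (75.0%), 5 in shARID1B.2 (69.0%), 4 in shARID1B.3 (66.6%), 7 in shARID1A/B.2.3 (71.1%) and 6 in shARID1A/B.4.2 (73.9%). The median log2 change of the members was -0.68, -0.50, -0.49, 0.12, -0.35 and -0.18 in the same order, beside 0.01 to 0.02 for all genes. Members changed by over 1 in size were CDKN1A and CDKN2B in shARID1A.2 and in shARID1A/B.4.2, CDKN1C and CDKN2C in shARID1A.4, CDKN1A and CDKN1C in shARID1B.2, and CDKN1C, CDKN2B, CDKN2C and CDKN3 in shARID1A/B.2.3. Of these, CDKN2B in shARID1A.2 and shARID1A/B.2.3 rested on Control replicate 2. Without that library its changes there were 0.34 and 0.46 and did not pass.

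Within a label, the conditions with different shRNAs were compared directly, since the members often moved in opposite directions there. Between shARID1A.2 and shARID1A.4, 7 of the 8 members differed (limma, adjusted p under 0.05; 75.8% of all genes), all but CDKN2B. CDKN1A differed by -2.33 ± 0.14 (SE) on the log2 scale and CDKN2A by -1.11 ± 0.07, both lower in shARID1A.2, while CDKN1C was higher by 1.39 ± 0.13 and CDKN2D by 1.41 ± 0.17. The differences of CDKN1B (0.30), CDKN2C (0.27) and CDKN3 (0.13) were smaller. Between shARID1A/B.2.3 and shARID1A/B.4.2 the same 7 members differed (74.9% of all genes), with CDKN1A higher in shARID1A/B.2.3 by 2.44 ± 0.14 and CDKN2A by 0.82 ± 0.07. CDKN1C (-1.11), CDKN2D (-0.80), CDKN3 (-0.73), CDKN2C (-0.50) and CDKN1B (-0.23) were lower there. Between shARID1B.2 and shARID1B.3, 4 members differed (66.0% of all genes), and CDKN1A (-1.15), CDKN2C (-0.75), CDKN3 (-0.66) and CDKN2A (-0.62) were all lower in shARID1B.2. In each pair the condition with less CDKN1A and CDKN2A lay on the positive side of the first principal component and the other on the negative side, and the part of that separation in these differences was not tested. For CDKN2B the 95% intervals of the differences ran from -0.56 to 0.91, from -1.54 to -0.06 and from -1.37 to 0.11 in the shARID1A, shARID1B and shARID1A/B pairs, with limma adjusted p of 0.661, 0.0523 and 0.113. With edgeR the shARID1B and shARID1A/B pairs passed (-0.84 and -0.67, adjusted p = 0.0382 and 0.0229). They also passed with only the 2 conditions compared (adjusted p = 0.0144 and 0.0207, limma), but not with DESeq2 or under the other scalings. Leaving out Control replicate 2, which enters these contrasts through the shared spread alone, brought the shARID1B and shARID1A/B pairs to adjusted p of 0.0034 and 0.0151 (limma), and leaving out Control replicate 1 or 3 brought the shARID1B pair to 0.0428 and 0.0379. The CDKN3 difference in the shARID1A pair did not pass without shARID1A.2 replicate 3 (0.10, adjusted p = 0.0696, limma).

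**Figure D3:**
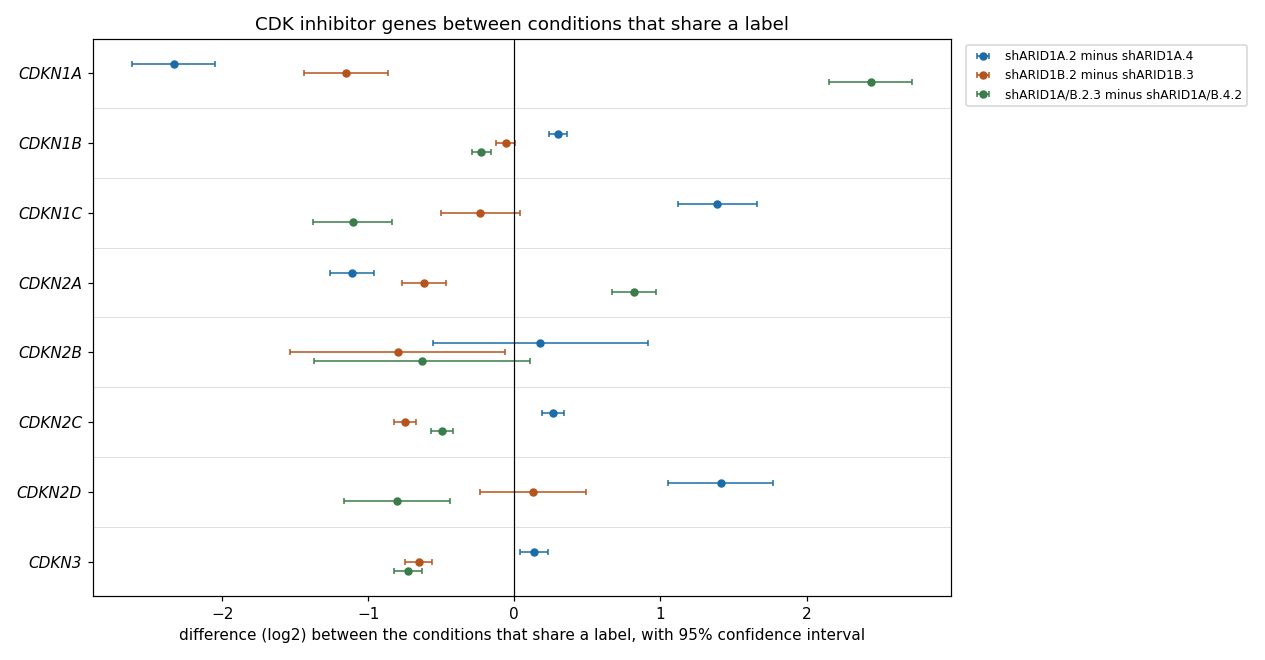
Difference of each CDK inhibitor gene between the 2 conditions that share a label, on the log2(value + 1) scale; points are limma estimates and bars 95% confidence intervals. CDKN1A differs by -2.33, -1.15 and 2.44 in the shARID1A, shARID1B and shARID1A/B pairs, and the bars of CDKN2B are the widest.

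Levels of different members can be compared only per length. Per kilobase of merged exons (value divided by exon length), CDKN1B stood at 1602 ± 25.2 in Control (SD, n = 3), followed by CDKN2C at 694 ± 11.3 and CDKN3 at 662 ± 31.2, a pair whose spreads overlapped. CDKN1C followed at 114 ± 6.89 and CDKN2D at 72.7 ± 17.4. Then came CDKN2A at 57.5 ± 3.81 and CDKN1A at 47.9 ± 5.20, with CDKN2B at 3.78 ± 2.33. CDKN2D and CDKN2A overlapped within their SD. The order depends on the exon model: over the longest transcript, 1283 bases of CDKN2A instead of 4329 merged, CDKN2A was at 194 ± 12.8 and ranked 4, and CDKN3 passed CDKN2C. CDKN1B ranked first and CDKN2B last in all 7 conditions under both exon models. CDKN1A went from 47.9 ± 5.20 in Control to 80.3 ± 6.20 in shARID1A/B.2.3 per kilobase of merged exons, level with CDKN2A at 80.2 ± 3.92 within their SD.

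The order of conditions differed between members. For CDKN1A it ran from shARID1A/B.2.3 (mean 245) and shARID1A.4 (180) through Control (146), shARID1B.3 (125), shARID1B.2 (56.2) and shARID1A/B.4.2 (44.3) to shARID1A.2 (35.2), and neighbouring conditions overlapped between Control and shARID1B.3 and between shARID1A/B.4.2 and shARID1A.2. For CDKN2C it ran from shARID1B.3 (2644) and Control (2304) through shARID1B.2 (1574), shARID1A/B.4.2 (1433), shARID1A.2 (1380) and shARID1A.4 (1148) to shARID1A/B.2.3 (1016), with an overlap between shARID1A/B.4.2 and shARID1A.2 alone. For CDKN1B, 4 of the 6 neighbouring pairs in the order overlapped, and for CDKN2B 5 of 6.

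Among the partners of these inhibitors, 10 of 11 listed CDKs and cyclins were tested, of which 9, 7, 9, 6, 7 and 9 were lower than Control, in the order of conditions used above for counts (from shARID1A.2 to shARID1A/B.4.2), and 1, 2, 1, 1, 0 and 1 were higher. Of all genes, 32.0% to 38.2% were called lower and 31.6% to 37.9% higher. The median log2 changes of the listed CDKs and cyclins were -1.20, -0.99, -0.51, -0.18, -1.06 and -0.77, beside medians of 0.01 to 0.02 for all genes. CDK2, the kinase bound by p21 and p27, fell in all 6 conditions, with log2 changes of -1.23, -1.89, -0.58, -0.23, -1.96 and -1.0 in that order. CDK6, a kinase bound by the INK4 inhibitors, had log2 changes of -2.27 in shARID1A.2 and -2.58 in shARID1A/B.4.2, where its values were 3714 to 3906 and 2794 to 3365 against 18093 to 19136 in Control. It also fell in shARID1B.2 and shARID1B.3 (-0.34 and -0.36), rose by 0.39 in shARID1A.4 and stood at 0.09 in shARID1A/B.2.3. CDK4 rose in shARID1A.4 (0.42) and shARID1B.3 (0.44) and fell in shARID1A.2, shARID1B.2 and shARID1A/B.4.2 (-0.47, -0.30 and -0.47). CCND1, the D-type cyclin of CDK4 and CDK6, fell in all 6 conditions, from -0.28 in shARID1B.3 to -1.71 in shARID1A.2, and CCNE2, a partner of CDK2, fell in all 6 as well, from -1.03 to -2.43. All these calls are limma calls at an adjusted p under 0.05.

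The genes that carry inhibitor proteins to degradation were tested in full, 12 of 12, and 9, 8, 8, 3, 8 and 9 were lower and 2, 3, 2, 4, 3 and 0 higher in the same order, with medians of -0.30, -0.19, -0.30, -0.01, -0.36 and -0.26. Of all genes, 32.0% to 38.2% were lower and 31.6% to 37.9% higher. SKP2, the receptor subunit that marks p27 for degradation, had log2 changes of -1.73 in shARID1A.4 and -2.08 in shARID1A/B.2.3, where CDKN1B stood at -0.13 and -0.25 (the former lost under upper-quartile scaling). It was lower by smaller amounts in shARID1A.2, shARID1B.2 and shARID1A/B.4.2 (-0.46, -0.45 and -0.45) and rose by 0.20 in shARID1B.3. CDC20, an activator of the anaphase-promoting complex, fell in all 6 conditions (-0.11 to -1.39), as did CUL1, the cullin that carries SKP2 (-0.24 to -0.99). DTL, which directs the degradation of p21 on chromatin, fell in 5 conditions (-0.74 to -1.05) and rose by 0.10 in shARID1B.3.

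MDM2, the ubiquitin ligase bound by ARF, rose by 0.63, 0.38 and 0.67 in shARID1A.2, shARID1B.2 and shARID1A/B.4.2, the conditions in which CDKN1A fell, and fell in shARID1A.4, shARID1B.3 and shARID1A/B.2.3 (-0.61, -0.48 and -0.67). PMAIP1, which encodes the pro-apoptotic protein NOXA, changed by -2.78, 0.62, -1.72, -0.11, 0.98 and -1.78, beside -2.03, 0.30, -1.37, -0.22, 0.74 and -1.69 for CDKN1A. In shARID1B.3 neither change passed (adjusted p = 0.164 for PMAIP1 and 0.175 for CDKN1A, limma), nor did that of CDKN1A in shARID1A.4. The values of PMAIP1 were 86.4 to 94.8 in shARID1A.2, 602 to 675 in Control and 1189 to 1295 in shARID1A/B.2.3. SESN2, a regulator of mTORC1, rose in all 6 conditions (2.36, 3.52, 1.63, 1.80, 3.08 and 1.81). RRM2B, a ribonucleotide reductase subunit, changed by -0.58, -1.85, -1.26, -2.21, -0.72 and 0.28, and SPATA18 by 1.54, -1.43, 1.40, -1.96, -0.35 and 0.02, of which the last pair of values did not pass.

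**Figure D4:**
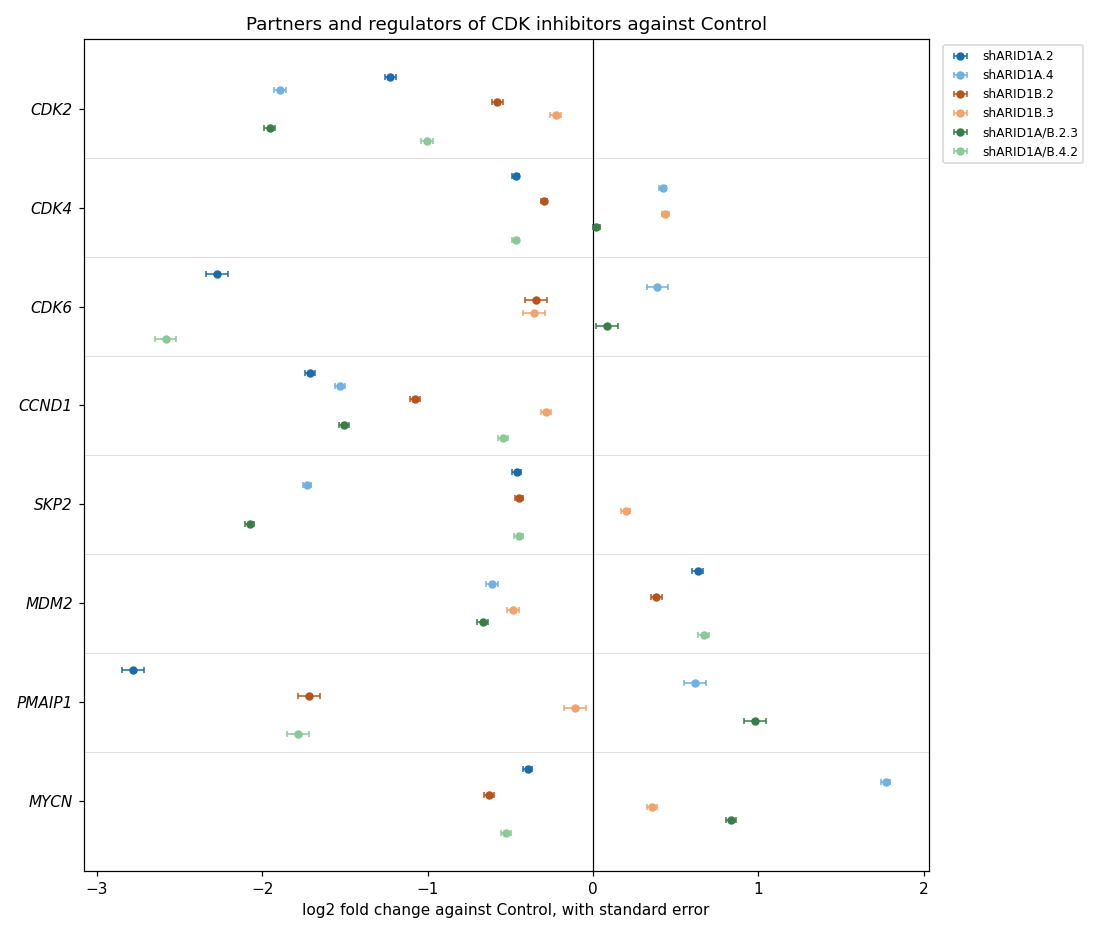
Log2 fold change against Control of partners and regulators of the CDK inhibitors in the 6 silenced conditions as labelled; points are limma estimates on log2(value + 1) and bars the standard error. CDK2 and CCND1 lie below 0 in all 6 conditions, whereas CDK6, MDM2, PMAIP1 and MYCN lie on both sides.

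Among 25 listed transcription regulators of these genes, 24 were tested, and 16, 16, 15, 9, 12 and 17 were lower and 6, 6, 7, 11, 7 and 2 higher, with medians of -0.47, -0.26, -0.29, 0.02, -0.11 and -0.36. Of all genes, 38.2%, 36.6%, 34.0%, 32.0%, 34.0% and 36.1% were lower and 37.9%, 37.0%, 31.6%, 31.9%, 35.2% and 35.1% higher. MYCN, amplified in this line and among its most abundant transcripts, rose by 1.77 in shARID1A.4, 0.83 in shARID1A/B.2.3 and 0.36 in shARID1B.3 and fell in shARID1A.2, shARID1B.2 and shARID1A/B.4.2 (-0.40, -0.63 and -0.53). MYC was low throughout, with means of 14.3 to 65.6. ETS1 fell in all 6 conditions (-0.90 to -2.83), and so did ETS2 (-0.38 to -1.69). These factors are known activators of CDKN2A.

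Within 200 kb of the members, 97 annotated neighbours were in the table and 42 were tested. Of these, 23, 18, 22, 17, 17 and 22 were lower and 11, 12, 9, 15, 12 and 10 higher in the same order of conditions, beside 32.0% to 38.2% of all genes lower and 31.6% to 37.9% higher. Lower neighbours outnumbered higher ones in every condition. Their median log2 changes were -0.31, -0.11, -0.20, -0.03, -0.03 and -0.20, beside medians of 0.01 to 0.02 for all genes. Whether the neighbours differ from all genes as a set was not tested. FAF1, which lies 482 bases from CDKN2C, changed by between -0.27 and 0.09, and KRI1, 425 bases from CDKN2D, by between -0.30 and 0.23. APOLD1, next to CDKN1B, rose by 0.41 in shARID1A.2, fell by 0.26 in shARID1B.2 and by 0.71 in shARID1A/B.2.3, and was not called elsewhere. CREBL2, also near CDKN1B, changed by between -1.43 (shARID1A.2) and 0.29 (shARID1B.3). C6orf89, near CDKN1A, fell in all 6 conditions (-0.50 to -1.93), as did GMFB, near CDKN3 (-0.13 to -2.20). ATG4D, near CDKN2D, rose in all 6 (1.18 to 1.85). CNIH1, next to CDKN3, fell in all 6 conditions (-0.17 to -1.18), most in shARID1B.2, where CDKN3 changed by -0.51. Near CDKN1C in the imprinted region of chromosome 11, PHLDA2 fell in the 5 conditions other than shARID1A/B.2.3, most in shARID1A.2 (-3.04) and shARID1B.2 (-2.10), and CARS1 rose in shARID1A.4 (1.76), shARID1A/B.2.3 (1.62), shARID1B.3 (0.91) and shARID1A/B.4.2 (0.09). MTAP, on the other strand beside CDKN2A, fell in 5 conditions (-0.36 to -0.76) and rose by 0.07 in shARID1A/B.2.3.

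The genes whose log2(value + 1) followed a member most closely over the 21 libraries, among 13674 genes with a mean of at least 50, are given as a description, since the libraries share conditions. CDKN1A was followed by PMAIP1 and PSME4 (Pearson r of 0.982 for each, Spearman rho of 0.974 for each). CDKN2C was closest to MDC1 (r = 0.991, rho = 0.974) and ABL2 (r = 0.987, rho = 0.948), and CDKN3 to MCM7 (r = 0.989, rho = 0.983), a subunit of the replicative helicase, and EDC3 (r = 0.988, rho = 0.974). CDKN2A was closest to BYSL (r = 0.983, rho = 0.952) and SLC6A8 (r = 0.979, rho = 0.929). Likeness was less close for CDKN1C with ZBED6CL (r = 0.962, rho = 0.871) and IMPAD1 (r = 0.949, rho = 0.853), and for CDKN1B with PAGR1 (r = 0.957, rho = 0.932) and TSPYL1 (r = 0.943, rho = 0.906). It was least close for CDKN2D with KIAA0040 (r = 0.924, rho = 0.884) and ZNF217 (r = 0.907, rho = 0.808), and for CDKN2B with CYC1 (r = 0.866, rho = 0.862) and FSTL3 (r = 0.823, rho = 0.890).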

How the data were processed

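Poly(A) RNA of SK-N-BE(2) cells was sequenced from stranded libraries, 3 for each of 7 conditions. The submitters' processing notes name STAR 2.5.3a, RSEM 1.3.0, DESeq2 1.26.0 and GRCh38. The annotation and the counting strand are not given in the sources used here. The table deposited by the authors holds a signal, reads per gene divided by 1 size factor per library (0.841 to 1.295). Whole reads were recovered from all values (within 0.05 read), 27954334 to 41077638 per library. Tables holding the authors' own fold changes and p-values were not used.

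Values were tested as log2(value + 1) with limma 3.58.1 (trend; R 4.3.3) over all 21 libraries, on 18584 genes kept by filterByExpr of edgeR 4.0.16, with Benjamini-Hochberg adjustment and a threshold of 0.05. The fit was tested on simulated data. edgeR and DESeq2 1.42.0 on the recovered reads, other pseudocounts, filters, scalings, groupings and left-out libraries were alternatives. p-values measure the spread between cultures of 1 line. Positions are from GENCODE release 29, which matched 58541 of 60728 identifiers.

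Named are the members, the targeted genes, MDM2, MYCN, CDK2, CDK4, CDK6, CCND1 and SKP2, up to 4 genes per list with the largest called changes, up to 4 neighbours per member within 200 kb, and the 2 genes most like each member. The members and lists were chosen with earlier results of these data known. DINOL, PANDAR and CDH1 were named after their values were seen. Results on 1 further gene and 1 list are not reported here.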

Additional observations from a re-analysis of the deposited data

Results flagged for a closer look

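Of 24 tests of a member between the conditions that share a label, 18 passed (limma, adjusted p under 0.05 over all genes), and these are listed here. Of all genes, 75.8%, 66.0% and 74.9% differed in the shARID1A, shARID1B and shARID1A/B pairs. The count of 18 is therefore no result about the members as a group. All values are differences on the log2(value + 1) scale. Between shARID1A.2 and shARID1A.4 they were -2.33 for CDKN1A, 0.30 for CDKN1B, 1.39 for CDKN1C, -1.11 for CDKN2A, 0.27 for CDKN2C, 1.41 for CDKN2D and 0.13 for CDKN3. Between shARID1B.2 and shARID1B.3 they were -1.15 for CDKN1A, -0.62 for CDKN2A, -0.75 for CDKN2C and -0.66 for CDKN3. Between shARID1A/B.2.3 and shARID1A/B.4.2 they were 2.44 for CDKN1A, -0.23 for CDKN1B, -1.11 for CDKN1C, 0.82 for CDKN2A, -0.50 for CDKN2C, -0.80 for CDKN2D and -0.73 for CDKN3. ARID1B also differed within each pair, by -0.47, -0.28 and 0.45. ARID1A differed by -0.06 in the shARID1A pair and by -0.37 in the shARID1B pair (adjusted p = 0.0495 and 3.31e-11, limma). In the shARID1A/B pair its difference of 0.06 did not pass (adjusted p = 0.0782, limma). The part of either transcript in the differences of the members was not tested.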

How the results depend on the processing

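Pooling both conditions of a label into 4 groups changed the most, since it averages conditions that moved apart. CDKN1A was then -0.86 under shARID1A and -0.48 under shARID1A/B, CDKN1B 0.024 under shARID1A, CDKN2A -0.064, 0.044 and 0.069 under shARID1A, shARID1B and shARID1A/B, CDKN2B 0.18 under shARID1B, CDKN2C -0.18 and CDKN3 -0.18 under shARID1B, CDKN2D -0.18 under shARID1A and -0.042 under shARID1A/B, ARID1B -0.070 under shARID1B and ARID1A -0.19 under shARID1A/B. Members called higher and lower were then 0 and 3, 0 and 0, and 1 and 2 under the 3 labels.

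Scaled to total reads, and to the upper quartile, CDKN1B in shARID1A/B.4.2 was 0.16 and 0.13, CDKN1C there 0.17 and 0.14, ARID1A there -0.027 and -0.052, ARID1A between the shARID1A conditions 0.086 and 0.033 and between the shARID1A/B conditions -0.10 and -0.031, and members called higher were 1 and 1 in shARID1B.2 and 3 and 3 in shARID1A/B.4.2. CDKN1B between the shARID1B conditions was 0.049 scaled to total reads. The cause was not tested. With edgeR, CDKN1B was 0.0065 and CDKN1C 0.018 in shARID1A/B.4.2, with 2 members higher. Members higher in shARID1A.4 were 1 by DESeq2 and 1 with no filter, and in shARID1A/B.4.2 there were 0 with at least 10 reads in every library, where CDKN2B is not tested.

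Leaving out 1 library at a time, CDKN2B ran from -0.88 to 0.14 in shARID1B.2, from -0.081 to 0.94 in shARID1B.3 and from -0.040 to 0.29 between the shARID1A conditions, and CDKN1C from -0.070 to 0.023 in shARID1A/B.4.2. Members higher ran from 1 to 3 in shARID1A.2 (1 without Control replicate 2), from 1 to 3 in shARID1A.4 (1 without Control replicate 2 or shARID1A.4 replicate 2), from 2 to 4 in shARID1B.3 (2 without its replicate 2) and from 1 to 2 in shARID1A/B.4.2 (2 without Control replicate 3 or shARID1A.4 replicate 1).

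Same-numbered replicates did not deviate together (median correlation 0.0046, with 3 of 63 pairs over 0.1). With the replicate number as a block, ARID1A between the shARID1A conditions was -0.06 (adjusted p = 0.0574, limma) and no longer passed, and no other call changed. Depth limits CDKN2B most, at 4 to 21 reads in Control.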
